A study of Mus musculus with 2 samples.

Results

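The D cyclins and the G1 kinase inhibitors were described as 10 genes of the 28692 in the deposited tables, chosen by name: the D cyclin genes *Ccnd1*, *Ccnd2* and *Ccnd3*, the kinase genes *Cdk4* and *Cdk6*, the E cyclin gene *Ccne1*, and the inhibitor genes *Cdkn1a* (p21), *Cdkn1b* (p27), *Cdkn2c* (p18) and *Cdkn2d* (p19). All 10 had unique molecular identifiers (UMIs, each counting 1 captured molecule) in both libraries. The cells came from E13.5 fetal livers of wild-type CD1 mice, from which TER-119 cells had been depleted, and were sorted for both Sca-1 and cKit, surface proteins of hematopoietic stem and progenitor cells (HSPCs). They were cultured, 1000 to a well, on DL4 (a ligand of Notch, coated at 10 µg/mL) together with VCAM-1 (an adhesion molecule, at 2.32 µg/mL), conditions that direct HSPCs toward the T-cell lineage. Both 10X Chromium libraries, FL001 and FL002, carry this 1 condition; by the study's account, cells captured right after the sort were pooled with cells from several days of culture, but which of them each library holds, and from how many embryos, is not stated, and no untreated or Notch-free library was analysed here.

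D cyclins bind CDK4 and CDK6 in G1 and start the phosphorylation of the retinoblastoma proteins, which frees E2F factors, and cyclin E with CDK2 then carries cells into S phase. The INK4 inhibitors p18 and p19 bind CDK4 and CDK6 themselves, whereas p21 and p27 bind cyclin and kinase complexes and hold back CDK2. In mouse, the D cyclins are partly interchangeable, blood cells lean mainly on cyclins D2 and D3, and cyclin D3 is known for its role in the expansion of immature thymocytes.

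The sequences below are the 250 bases before an annotated start of *Ccnd3* and *Cdkn1a*, the 2 members with the largest fitted rise from the progenitors to the commitment-gene gate, and of *Cdk4*, the most abundant member, with RefSeq as source and GRCm38.p6 as build. Capitals mark matches on either strand to 8 words. The general promoter words were the TATA box TATAAA, the GC box written as GGGCGG and the CCAAT box. The words of single factors were the E box CACGTG, the E2F words TTTGGCGC and also TTTCGCGC, the Runx word TGTGGT, and for Rbpj, the DNA-binding partner of Notch, the core written as TGGGAA.
*Ccnd3*, first of 2 starts, chr17:47504801-47505050, + strand: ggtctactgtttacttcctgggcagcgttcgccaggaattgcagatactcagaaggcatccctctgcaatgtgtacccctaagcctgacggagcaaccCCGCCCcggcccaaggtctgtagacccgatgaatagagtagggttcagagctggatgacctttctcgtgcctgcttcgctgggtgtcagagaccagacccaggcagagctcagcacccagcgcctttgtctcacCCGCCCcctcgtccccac
*Cdkn1a*, second of 2 starts, chr17:29093519-29093768, + strand: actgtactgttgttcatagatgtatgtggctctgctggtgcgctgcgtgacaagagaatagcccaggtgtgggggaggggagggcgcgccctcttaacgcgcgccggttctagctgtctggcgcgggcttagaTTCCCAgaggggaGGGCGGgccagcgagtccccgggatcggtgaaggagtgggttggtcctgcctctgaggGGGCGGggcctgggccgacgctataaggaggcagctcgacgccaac
*Cdk4*, 1 start, chr10:127063285-127063534, + strand: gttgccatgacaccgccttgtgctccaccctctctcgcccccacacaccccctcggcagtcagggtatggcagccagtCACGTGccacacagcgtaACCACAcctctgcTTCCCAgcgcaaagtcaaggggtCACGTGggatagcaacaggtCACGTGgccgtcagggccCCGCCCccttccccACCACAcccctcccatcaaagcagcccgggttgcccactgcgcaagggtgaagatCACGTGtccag
The *Ccnd3* window held 2 GC boxes, and 32.7% of the 32851 promoter windows of this length hold at least 1. The window of the second *Ccnd3* start, not printed, held 1 GC box and 1 CCAAT box, which 33.8% of all windows hold. The second *Cdkn1a* window held 2 GC boxes and 1 TGGGAA, a word found in 21.6% of all windows, while its first window held none of the 8 words. The *Cdk4* window held 4 copies of CACGTG, which reads the same on both strands. At least 1 copy stands in 6.02% of all windows, and at least 4 stand in 7 of them (0.0213%). None of the matches in these 3 windows overlaps another. The promoter table covered 8 of the 10 members, and *Ccnd1* and *Ccnd2* are named only.

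With barcodes kept from 1500 UMIs and 500 detected genes upward, if no more than 10% of UMIs were mitochondrial, 1788 cells of FL001 and 4100 of FL002 remained, with a median of 7722 and 4752.5 UMIs per cell, and 10 kept barcodes were shared by the libraries. Cells were placed in 6 gates by UMIs of marker genes. Progenitor cells had at least 2 UMIs of *Lmo2* and *Mef2c* together and at most 1 of *Cd3g*, and were split into a stem-like progenitor gate with at least 1 UMI of *Meis1*, *Hlf* or *Mecom* and an other progenitor gate with 0. The low-Cd3g gate had at most 2 UMIs of *Cd3g* and at most 1 of *Lmo2* and *Mef2c*, the Cd3g gate at least 3 of *Cd3g* and 0 of *Il2ra*, the Il2ra gate at least 1 of *Il2ra* (CD25), and the commitment-gene gate at least 2 of *Ptcra*, *Lef1* and *Bcl11b*. In this order the gates held 215, 213, 381, 327, 738 and 451 cells in FL001 and 301, 423, 1134, 873, 1668 and 501 in FL002. Gates overlap as worded: every commitment-gene cell was in another gate too, 275 and 291 of them in the Il2ra gate. The Il2ra gate also shared 75 and 276 cells with the low-Cd3g gate. It shared 12 and 23 with the other progenitor gate and 5 and 13 with the stem-like gate. The order is one of marker genes and not of time.

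The marker lists followed the gate names, which for the gate genes the rule itself fixed. A progenitor list of 8 genes, which holds the 5 gate genes, summed to 1319 and 1394 CPM (UMIs of a gene, or list, per 1000000 UMIs of the same cells) in the stem-like gate and to 87.6 and 85.3 in the commitment-gene gate. A T-lineage list of 12 genes, which also holds the 5 genes *Cd3g*, *Il2ra*, *Ptcra*, *Lef1* and *Bcl11b* of the gates, went the other way, from 43.5 and 62.5 CPM to 6012 and 5774. Neutrophil and monocyte markers were also present: 10 genes, among them *Elane*, *Mpo* and *S100a8*, summed to 1649, 3365 and 3764 CPM in the stem-like, other progenitor and low-Cd3g gates of FL001 and to 891, 2211 and 1134 in those of FL002, against 32.7 and 89.5 in the commitment-gene gate. A megakaryocyte list of 6 genes summed to 1400 and 369 CPM in the stem-like gate, of which *Pf4* gave 1205 and 240. In the other progenitor gate it summed to 84.1 and 390 CPM, so the libraries differed. Mitosis genes (20 genes) were highest in the stem-like gate, at 3240 and 3179 CPM, and lay between 2037 and 2350 from the low-Cd3g gate on. The results are therefore also given without marker-positive cells, meaning cells with at least 3 UMIs of any of 7 lists of other cell types. Some genes of these lists are expressed in T-cell precursors too: in the commitment-gene gate of FL001, *Id2* gave 167 of the 215 CPM of the innate lymphoid list and *Bst2* 132 of the 142 CPM of the dendritic list. A marker-positive cell is thus not shown to be of another lineage. Without them 75 of 425 and 249 of 722 progenitor cells remained, and 252 of 448 and 344 of 499 commitment-gene cells.

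Each level is a sum over all cells in a gate, in CPM, and intervals are 95% exact Poisson intervals that cover counting error only. Libraries were sequenced from the 3′ end, so levels were not scaled by gene length.

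*Ccnd1*, a D cyclin gene with known expression in many non-blood tissues, was high in progenitors and low in the T-lineage gates. Its level in the stem-like, other progenitor, low-Cd3g, Cd3g, Il2ra and commitment-gene gates was 118, 125, 27.3, 9.55, 10.9 and 6.44 CPM in FL001 and 119, 118, 32.3, 5.23, 12.04 and 4.64 CPM in FL002. The highest gate stood 19.4 and 25.5 times above the lowest. Both progenitor gates overlapped in their 2 values and stood above the low-Cd3g gate, which in turn stood above the 3 T-lineage gates in both libraries. In the commitment-gene gate only 23 and 11 UMIs were counted, in 3.77% and 2.20% of cells, and 0.665% and 0.2% of cells had one after each cell was thinned to 1500 UMIs. Of 10 myeloid genes that such cells should lack, *Mpo* (4.43% and 7.98% of the same cells) and *Prtn3* (3.99% and 2.40%) were found more often than *Ccnd1*, and the other 8 less often, at a median depth of 6998 and 4175 UMIs. The summed empty droplets (barcodes with at most 100 UMIs) held *Ccnd1* at 20.9 and 32.9 CPM. Its level in the commitment-gene gate was 0.307 (0.195 to 0.461) and 0.141 (0.0704 to 0.253) times as high. The same ratio was 0.0378 and 0.145 for *Mpo* and 0.102 and 0.327 for *Prtn3*, so *Ccnd1* stood above both in FL001 and above neither in FL002. Of the other 8 genes, *Ly86* stood above *Ccnd1* in both libraries, at 1.52 and 0.633, on 6 and 4 UMIs. *Elane* (0.384), *Ms4a3* (0.190) and *Ctsg* (0.154) stood above it in FL002 only, and the rest in neither. Some of these ratios rest on few cells. In FL002 the 17 *Elane* UMIs lay in 0.2% of cells, the 8 of *Ms4a3* in 0.399% and the 73 of *Prtn3* in 2.40%. The 11 *Ccnd1* UMIs lay in 2.20%. Whether these UMIs are free RNA or come from single cells was not tested.

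*Ccnd2*, which encodes a D cyclin induced by cytokines in lymphocytes, was present in every gate and highest before the Cd3g gate. Its levels in the same order were 285, 311, 320.03, 249.7, 222 and 205 CPM in FL001 and 255, 284, 265, 210.2, 217 and 171 CPM in FL002. The commitment-gene gate was lowest in both libraries, below the next gate beyond their spread, and the highest gate was 1.56 and 1.66 times higher. Among the stem-like, low-Cd3g and other progenitor gates neighbouring levels did not differ beyond the spread of the libraries.

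*Ccnd3*, the D cyclin gene of immature thymocytes, ran the other way, with 180.3, 169, 243, 302, 326 and 329.6 CPM in FL001 and 132, 182, 229, 300.6, 290.2 and 326 CPM in FL002. The low-Cd3g gate stood above both progenitor gates and below the 3 T-lineage gates in both libraries. The Il2ra gate overlapped both the Cd3g and the commitment-gene gate, but the commitment-gene gate stood above the Cd3g gate in both libraries. The progenitor gates overlapped each other. The plot of D cyclin levels shows the 3 courses side by side.

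**Figure D1:**
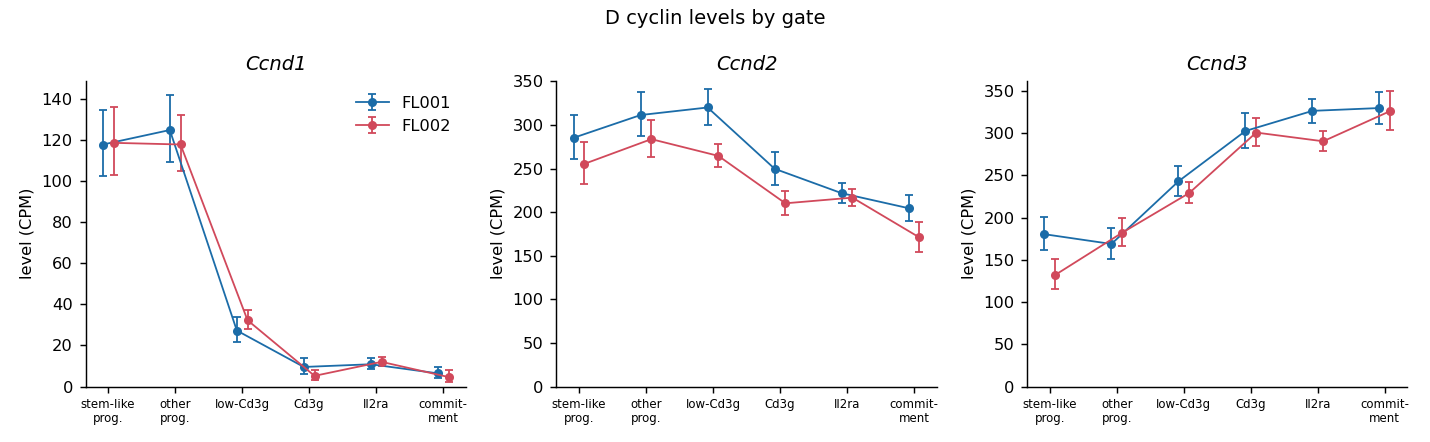
Level of *Ccnd1*, *Ccnd2* and *Ccnd3* (CPM, linear axis from 0) in the 6 gates, in the order given in the text, for FL001 (blue) and FL002 (red); bars are 95% exact Poisson intervals. *Ccnd1* drops from 118 to 125 CPM in the progenitor gates to 4.64 to 12.04 in the T-lineage gates, *Ccnd2* is lowest in the commitment-gene gate and *Ccnd3* is lowest in the progenitor gates; lines only join the gates and mark no time.

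The 3 D cyclin genes together differed little between gates, with no test made. Their summed level was 541 to 605 CPM across the gates of FL001 and 502 to 584 CPM in FL002, while the gene that supplied it differed. In the stem-like gate, *Ccnd1*, *Ccnd2* and *Ccnd3* made up 20.2%, 48.9% and 30.9% of D cyclin UMIs in FL001 and 23.4%, 50.5% and 26.1% in FL002. In the low-Cd3g gate these shares were 4.62%, 54.2% and 41.2% in FL001 and 6.14%, 50.3% and 43.5% in FL002. In the commitment-gene gate they were 1.19%, 37.8% and 61.0% in FL001 and 0.926%, 34.1% and 65.0% in FL002. *Ccnd2* thus gave the most D cyclin UMIs in the progenitor and low-Cd3g gates and *Ccnd3* in the Cd3g, Il2ra and commitment-gene gates, in both libraries. The exact binomial intervals of *Ccnd2* and *Ccnd3* did not overlap in any gate, being nearest in the low-Cd3g gate of FL002, at 48.5 to 52.1% and 41.8 to 45.3%.

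**Figure D2:**
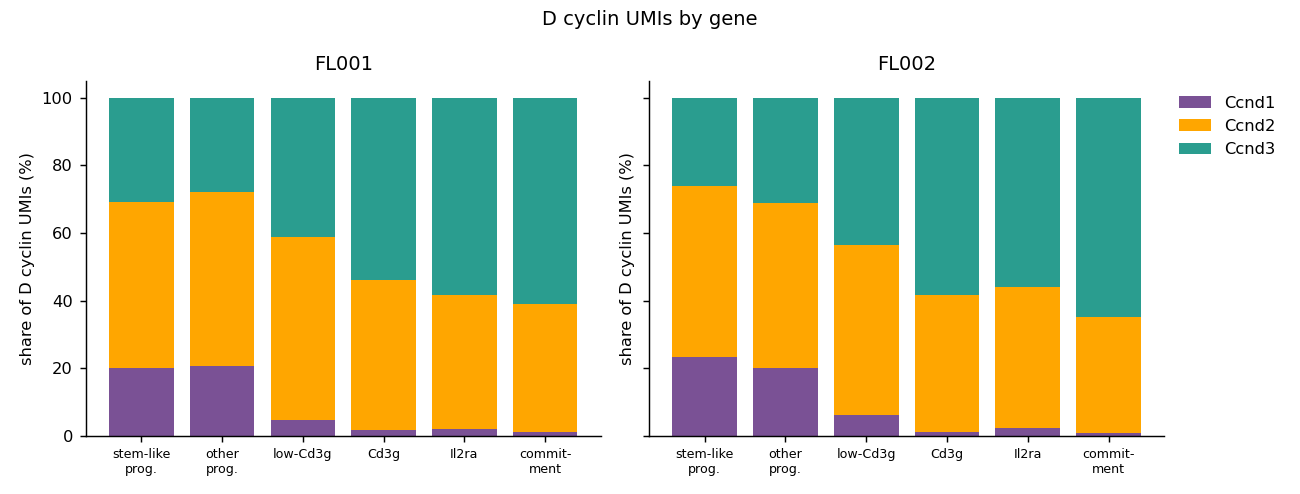
Share of the summed *Ccnd1*, *Ccnd2* and *Ccnd3* UMIs (percent, stacked bars) that each gene supplied in the 6 gates, FL001 on the left and FL002 on the right. The *Ccnd1* part is 20.2 to 23.4% in the progenitor gates and 0.926 to 2.32% from the Cd3g gate on, where *Ccnd3* supplies 53.8 to 65.0%.

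Single cells were compared after thinning each to 1500 UMIs. At this depth 41.8 to 47.9% of cells of a gate and library had no D cyclin UMI, which limits what can be said of a cell's own D cyclin. Cells with *Ccnd3* alone made up 15.8% and 11.6% of the stem-like gate and 26.2% and 30.3% of the commitment-gene gate, and cells with *Ccnd1* alone or with another D cyclin made up 18.1% and 16.6% of the former. Cells with both *Ccnd2* and *Ccnd3* and without *Ccnd1* made up 4.98 to 11.3% of a gate. The number of cells with both genes was 0.943 to 1.18 times the product of their shares in the 12 combinations of gate and library, and the interval held 1 in each, so neither avoidance nor co-occurrence of *Ccnd2* and *Ccnd3* was detectable at this depth.

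Of the D cyclin partners, *Cdk4* differed less between gates than any D cyclin gene in both libraries, but *Cdk6* did so in FL001 only. The highest *Cdk6* gate stood 1.32 and 1.91 times above the lowest, against 1.56 and 1.66 times for *Ccnd2*. *Cdk4*, the most abundant member, lay between 626 and 675 CPM in FL001 and between 569 and 650.4 CPM in FL002, and each gate overlapped its neighbour in the order of levels. *Cdk6* levels in gate order were 172, 212, 214, 186, 226 and 191 CPM in FL001 and 143, 185, 210.0, 239, 273 and 224 CPM in FL002. The stem-like gate was lowest for *Cdk6* in both libraries and the Il2ra gate highest, but FL002 exceeded FL001 from the Cd3g gate on, and all neighbours above the stem-like gate overlapped. The summed empty droplets held *Cdk6* at 267 CPM in FL001 and 379 in FL002, above every gate of the same library. The part of such free RNA in the gate levels was not tested.

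*Ccne1*, the cyclin that activates CDK2 at the entry to S phase, was lowest in the stem-like gate, at 28.5 and 28.1 CPM, and highest in the Cd3g gate, at 52.7 and 57.5 CPM. The other progenitor gate lay between at 33.4 and 37.8 CPM. The low-Cd3g, Il2ra and commitment-gene gates lay between 42.8 and 52.6 CPM in both libraries, and the low-Cd3g gate overlapped both of the others. The commitment-gene gate, at 52.6 and 48.1 CPM, stood above the Il2ra gate, at 44.3 and 45.3 CPM. A list of 24 S-phase genes, used again below, had the same extremes. It was lowest in the stem-like gate, at 3297 and 2972 CPM, and highest in the Cd3g gate, at 4002 and 3626. The part of S phase in the *Ccne1* levels by gate was not tested.

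*Cdkn1a*, the p21 gene and a p53 target, had the widest range among the inhibitor genes with more than 100 UMIs. Its levels in gate order were 51.9, 67.4, 137, 189, 260.1 and 229 CPM in FL001 and 37.4, 51.2, 143, 201, 221 and 227 CPM in FL002. The progenitor gates overlapped each other, as did the Il2ra and commitment-gene gates, and every other step separated both libraries. After thinning to 1500 UMIs, 6.98% and 5.65% of stem-like cells and 23.5% and 26.3% of commitment-gene cells had a *Cdkn1a* UMI (30.2%, 18.9%, 64.1% and 52.1% before thinning).

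The other inhibitor genes were low or level. *Cdkn1b*, whose p27 protein is regulated largely through its degradation, stood between 6.06 and 12.6 CPM in FL001 and between 6.97 and 10.2 CPM in FL002. Its low-Cd3g gate was lowest in both libraries, at 6.06 and 6.97 CPM. The Il2ra gate came next, at 7.76 and 7.63 CPM, with 127 and 174 UMIs of the gene in all kept cells. *Cdkn2d* ranged from 47.0 to 69.2 CPM in FL001 and from 56.8 to 65.9 CPM in FL002, and every gate overlapped its neighbour. *Cdkn2c* had 32 UMIs in all kept cells of FL001 and 23 in those of FL002, too few to order the gates. The plot of the other members shows the intervals.

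**Figure D3:**
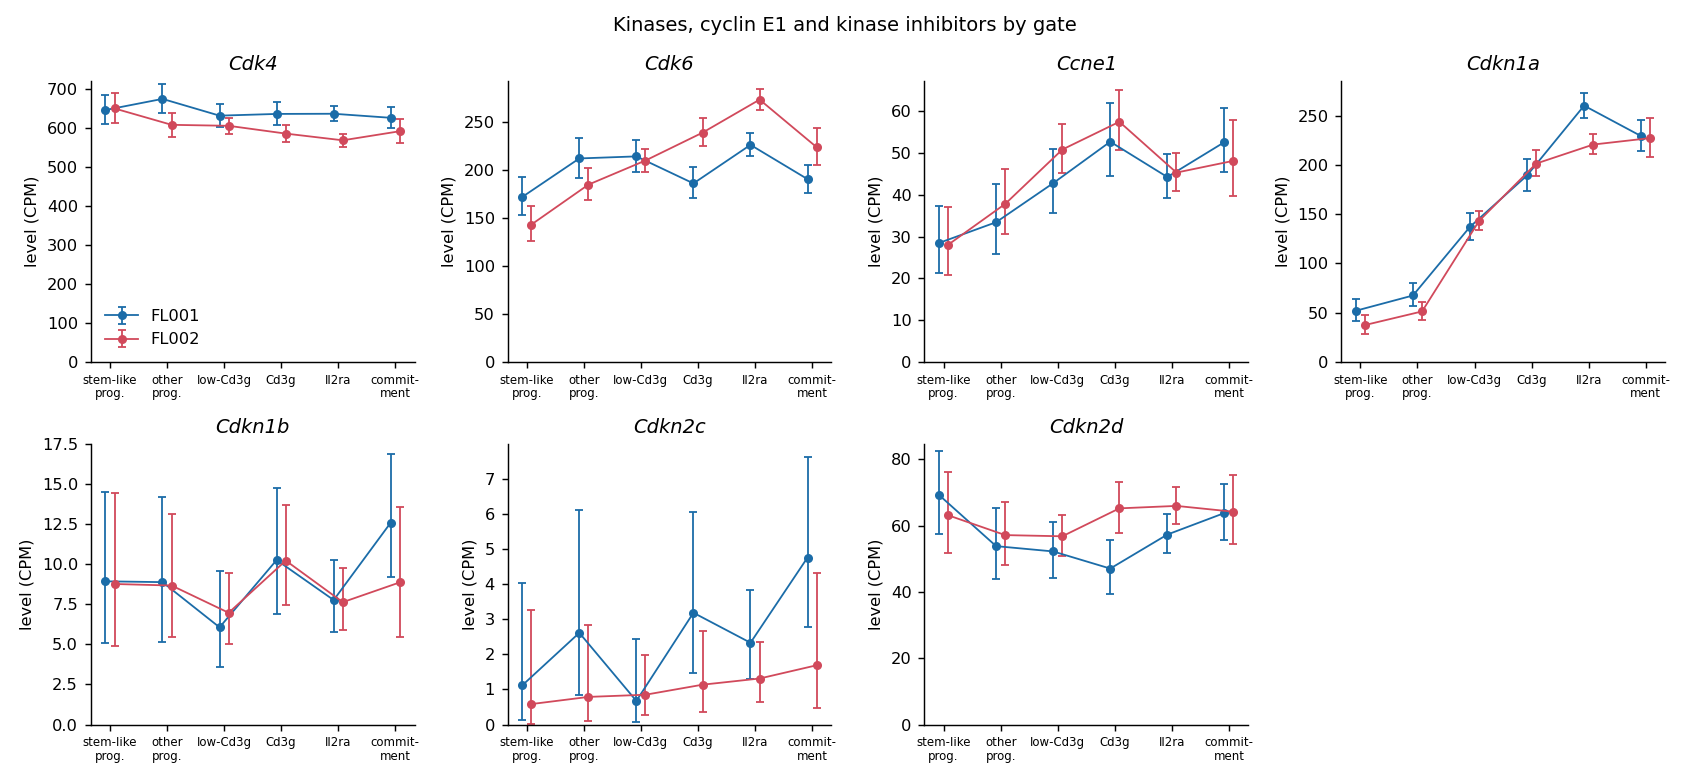
Level (CPM, linear axes from 0, a different scale in each panel) of the 7 other members in the 6 gates of FL001 (blue) and FL002 (red), with 95% exact Poisson intervals. *Cdkn1a* is 37.4 to 67.4 CPM in the progenitor gates and 189 to 260.1 CPM in the T-lineage gates, *Cdk4* stays between 569 and 675 CPM, and the *Cdkn1b* and *Cdkn2c* intervals are wide.

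Gates were compared on UMI sums per library with edgeR's quasi-likelihood test and the library as a block, and p-values were adjusted by Benjamini-Hochberg over all genes tested. With 1 sum per library and gate, the p-values of the gate comparisons measure only how the gate difference varies between libraries. There were 2 libraries of 1 condition, and this spread may be technical. The test estimates this spread largely by sharing it across genes, separately in each comparison. The p-values of different comparisons should therefore not be set against each other. Of the 28 member changes past the threshold of 0.05 in the 8 comparisons below, all 56 values from a single library had the sign of the fit. The calls came from these same 2 libraries, so this count was largely fixed in advance and gives them no support. Genes that define a gate were left out of every count.

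Between the stem-like and the other progenitor gate, *Cdk6* was the 1 member past the threshold. It was at 172 against 212 CPM in FL001 and at 143 against 185 in FL002, a log2 fold change of -0.35 (SE 0.084, edgeR adjusted p = 0.00124). This was 1 of 9 members tested, where 6.59% of all genes tested passed. *Cdkn1a* missed the threshold at -0.43 (SE 0.149, edgeR adjusted p = 0.061), and the difference for *Ccnd1* was -0.05 with an interval from -0.24 to 0.14. The *Cdk6* call was lost with DESeq2 (adjusted p = 1), without the block (0.305), with gates from thinned cells (0.708) and with marker-positive cells left out (0.055, log2 fold change -0.79).

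From the other progenitor to the low-Cd3g gate, *Ccnd1* fell and *Cdkn1a* rose. *Ccnd1* was at 125 and 118 CPM in the progenitors and at 27.3 and 32.3 in the low-Cd3g gate of FL001 and FL002, a log2 fold change of -1.99 (SE 0.118, edgeR adjusted p = 1.8e-60). *Cdkn1a* went from 67.4 and 51.2 to 137 and 143 CPM, a log2 fold change of 1.27 (SE 0.105, edgeR adjusted p = 2.26e-31). *Ccnd3* rose by 0.42 (SE 0.079, edgeR adjusted p = 3.1e-06) and *Ccne1* by 0.40 (SE 0.141, edgeR adjusted p = 0.0342). These were 4 of 9 members tested, against 13.2% of all genes. *Ccnd2* differed by -0.03 (-0.17 to 0.11), *Cdk4* by -0.05 (-0.18 to 0.09) and *Cdk6* by 0.11 (-0.04 to 0.26). The calls of *Ccnd3* and *Ccne1* were lost with DESeq2 (adjusted p = 0.223 and 1), with gates from thinned cells (0.677 and 0.948) and with marker-positive cells left out (0.509 and 0.481), and that of *Ccne1* also without the block (0.25) and with a low-Cd3g gate freed of other cells. Those of *Ccnd1* and *Cdkn1a* were kept in all of these, at -1.68 and 1.33 with marker-positive cells left out. With the freed low-Cd3g gate 4 members were called, 1 of them not past the threshold in the main fit.

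From the low-Cd3g to the Cd3g gate, *Ccnd1* and *Ccnd2* fell and *Ccnd3* and *Cdkn1a* rose. *Ccnd1* fell by 2.11 on the log2 scale (SE 0.212, edgeR adjusted p = 1.95e-21) and *Ccnd2* by 0.33 (SE 0.067, edgeR adjusted p = 1.34e-05), from 320.03 and 265 to 249.7 and 210.2 CPM. *Ccnd3* rose by 0.37 (SE 0.066, edgeR adjusted p = 5.77e-07), from 243 and 229 to 302 and 300.6 CPM, and *Cdkn1a* by 0.49 (SE 0.077, edgeR adjusted p = 6.52e-09). These were 4 of 9 members tested, against 15.6% of all genes. With DESeq2 only the *Ccnd1* call was kept (adjusted p = 0.246, 0.115 and 0.0656 for *Ccnd2*, *Ccnd3* and *Cdkn1a*), and without the block those of *Ccnd2* and *Ccnd3* were lost (0.226 and 0.0605). Leaving out marker-positive cells ended those of *Ccnd3* and *Cdkn1a* (0.0605 and 0.0511) and gave *Ccnd2* a log2 fold change of -0.53, and gates from thinned cells ended that of *Ccnd2* (0.082) and gave *Ccnd1* a log2 fold change of -4.49.

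Between the Cd3g and the Il2ra gate few genes of any kind differed, 72 of 10393 tested (0.693%), a count that went to 179 with median-of-ratios size factors and to 0 without the block (109 at an unadjusted p under 0.05). Of 10 members tested, *Cdk6* rose by 0.23 on the log2 scale (SE 0.046, edgeR adjusted p = 0.0202) and *Cdkn1a* by 0.27 (SE 0.060, edgeR adjusted p = 0.0362). *Cdk6* was at 186 against 226 CPM in FL001 and at 239 against 273 in FL002, so the step was smaller than the gap between the libraries in the Cd3g gate. *Ccnd1* had a log2 fold change of 0.73 (SE 0.245, edgeR adjusted p = 0.295), on 27 against 70 and 23 against 101 UMIs. Both calls were lost with DESeq2 (adjusted p = 1 for each), without the block (1 for each) and with gates from thinned cells (0.613 and 0.773), and when commitment-gene cells were left out on both sides (0.426 and 0.0684), where *Ccnd1* passed instead.

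The commitment-gene cells had less *Ccnd1*, *Ccnd2* and *Cdk6* than the Il2ra cells with at most 1 UMI of the commitment genes. *Ccnd1* was at 14.1 and 13.3 CPM in these Il2ra cells and at 6.44 and 4.64 CPM in the commitment-gene gate, a log2 fold change of -1.29 (SE 0.258, edgeR adjusted p = 0.000189). *Ccnd2* fell by 0.31 on the log2 scale (SE 0.060, edgeR adjusted p = 0.00012), from 241 and 222 to 205 and 171 CPM. *Cdk6* fell by 0.31 (SE 0.057, edgeR adjusted p = 4.65e-05), from 235 and 276 to 191 and 224 CPM. These were 3 of 9 members tested, against 16.2% of all genes. The Il2ra gate as a whole also held 75 and 276 cells of the low-Cd3g gate, where *Ccnd1* was at 27.3 and 32.3 CPM, and some progenitor cells. The part of this mix in the 3 differences was not tested. *Cdkn1a* differed by -0.07 (-0.19 to 0.05) and *Ccnd3* by 0.10 (edgeR adjusted p = 0.23). All 3 calls were lost with DESeq2 (adjusted p = 0.483, 0.263 and 0.193 for *Ccnd1*, *Ccnd2* and *Cdk6*) and without the block (0.0699, 0.349 and 0.425). Gates from thinned cells ended those of *Ccnd2* and *Cdk6* (0.621 and 0.237; *Ccnd1* had too few UMIs to be tested), and leaving out marker-positive cells ended that of *Ccnd2* (0.0544).

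Across the whole span, from all progenitor cells to the commitment-gene gate, 5 of 9 members tested passed, where 32.6% of all genes did. *Ccnd1* fell from 122 and 118 to 6.48 and 4.24 CPM, a log2 fold change of -4.40 (SE 0.202, edgeR adjusted p = 2.06e-11). *Ccnd2* fell from 298 and 273 to 203 and 171 CPM, by 0.58 on the log2 scale (SE 0.100, edgeR adjusted p = 0.00023). *Ccnd3* rose from 168 and 159 to 325 and 322 CPM, a log2 fold change of 1.01 (SE 0.098, edgeR adjusted p = 3.18e-07). *Cdkn1a* rose from 60.1 and 45.8 to 231 and 228 CPM, a log2 fold change of 2.15 (SE 0.123, edgeR adjusted p = 3.39e-10), and *Ccne1* rose by 0.68 (SE 0.159, edgeR adjusted p = 0.00325). *Cdk4* differed by -0.05 (-0.21 to 0.12), *Cdkn2d* by 0.11 (-0.15 to 0.38) and *Cdk6* by 0.23 (edgeR adjusted p = 0.136). With all marker-positive cells left out, the changes were -5.04 for *Ccnd1*, -0.46 for *Ccnd2*, 0.85 for *Ccnd3* and 2.33 for *Cdkn1a*, all past the threshold, and 0.58 for *Ccne1* (adjusted p = 0.13), on 75 progenitor cells of FL001 and 249 of FL002. *Ccne1* was also lost with DESeq2 (adjusted p = 0.347), and gates from thinned cells kept *Ccnd1* and *Cdkn1a* but not *Ccnd2* (0.111), *Ccnd3* (0.267, log2 fold change 0.37) or *Ccne1* (0.906). In all, 3 members were called with gates from thinned cells and 5 with marker-positive cells left out. Each of these counts holds 1 member that was not past the threshold in the main fit. Over the 6 comparisons of gates the median log2 fold change of the tested members was -0.16, -0.02, 0.08, -0.00, 0.01 and 0.23.

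**Figure D4:**
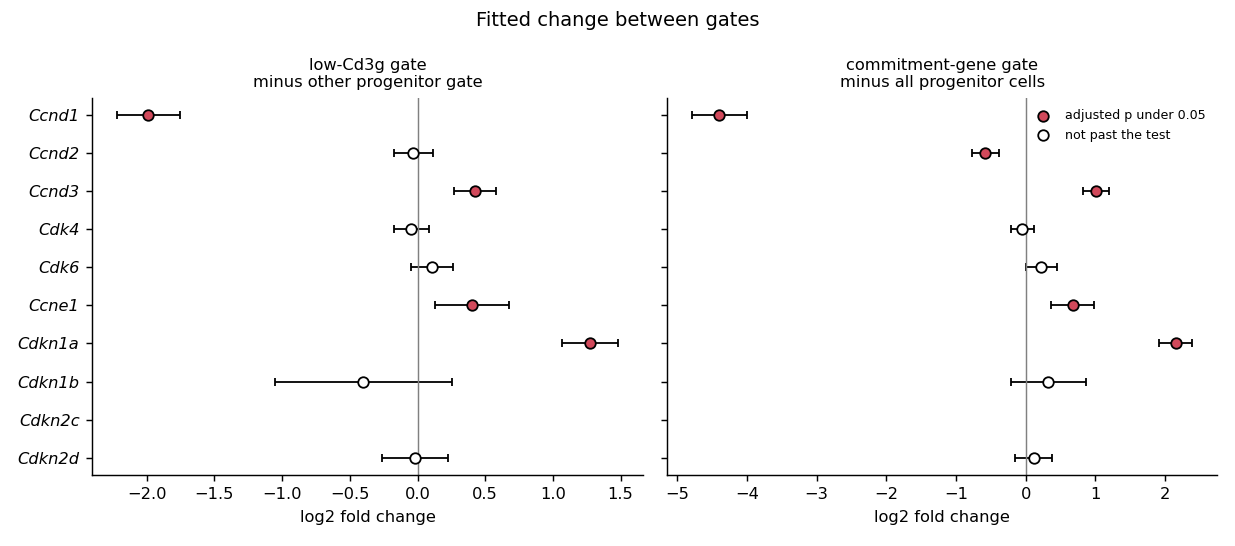
Fitted log2 fold change of each tested member from the other progenitor to the low-Cd3g gate (left) and from all progenitor cells to the commitment-gene gate (right). Bars are 1.96 SE to each side and may be narrower than 95% intervals. Filled points have an edgeR adjusted p under 0.05, and the axes differ. *Ccnd1* stands lowest in both panels, at -1.99 and -4.40, and *Cdkn1a* highest, at 1.27 and 2.15; *Cdkn2c* had too few UMIs to be tested.

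Other genes of the G1 to S network were counted from a list of 31, beside the share of all genes called in the same comparison. Between the stem-like and the other progenitor gate, 3 of 26 tested were higher and 0 lower (6.59% of all genes), led by *Cdkn1c* (p57, a known inhibitor of cycling in stem cells) with a log2 fold change of 1.04 (SE 0.174, edgeR adjusted p = 3.77e-07). From the other progenitor to the low-Cd3g gate, 1 of 29 rose and 4 fell (13.2% of all genes), with *E2f2* at -1.26, its partner *Tfdp1* at -1.23 and *Cdkn1c* at -1.13. From the low-Cd3g to the Cd3g gate, 2 of 28 rose and 2 fell (15.6%), with *Mycn*, a Myc family factor, at -1.23. Between the Cd3g and Il2ra gates, 0 of 28 passed the edgeR test (0.693% of all genes), with 3 at an unadjusted p under 0.05. DESeq2 called 0 of 30, and 13 of all genes. With so few genes called, these counts of 0 say nothing particular to the list. From the Il2ra to the commitment-gene gate, 0 of 28 rose and 2 fell (16.2%), *Mycn* by 1.81 and *Myc* by 0.42 on the log2 scale. Across the whole span, 3 of 29 rose and 6 fell (32.6%), with *Mycn* at -2.67, *E2f7* at -2.15 and *Cdkn1c* at -1.84, and none of the 3 that rose reached 1. The median log2 fold change of the list lay between -0.07 and 0.03 in these 6 tests, and that of all genes tested between -0.01 and 0.00. The INK4 gene *Cdkn2a* was at 0 UMIs in every gate of both libraries, and *Cdkn2b* was at 0 in all but the Il2ra gate of FL002.

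To set the members against the cell cycle itself, cells of each gate and library were ranked by their share of UMIs in the mitosis list or in an S-phase list of 24 genes and cut into 3 sets of about equal size, each cell counted in 1 gate, and the high set was compared with the low set. High sets also had more UMIs per cell, with medians of 9886 against 5449.5 (FL001) and 6196 against 3409 (FL002) for mitosis and of 8439 against 5913 and 5272 against 3589 for S phase, so the sets were also cut after thinning each cell to 1500 UMIs. The fits had library and gate as 1 block of 12 levels. Their p-values therefore measure how the difference between high and low sets varies over these 12 blocks. The 6 gates of 1 library are not independent replicates.

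*Ccne1* marked the S-phase sets. It stood at 74.1 CPM in the high and at 9.96 in the low sets of FL001 and at 81.8 and 9.77 CPM in those of FL002, a log2 fold change of 2.96 (SE 0.111, edgeR adjusted p = 8.58e-20). The high set was above the low set in each of the 12 combinations of gate and library, from 51.0 against 5.42 CPM in the stem-like gate of FL001 to 97.0 against 8.53 CPM in the Cd3g gate of FL002. Of 8 members tested, 4 passed, against 36.9% of all genes. *Cdk4* rose by 0.20 (SE 0.034, edgeR adjusted p = 1.93e-05), from 592 and 541 to 679 and 617 CPM, *Ccnd3* rose by 0.15 (SE 0.049, edgeR adjusted p = 0.0164), and *Cdk6* fell by 0.25 (SE 0.064, edgeR adjusted p = 0.00207). The *Ccnd3* call was lost without the block (adjusted p = 0.55), with sets from thinned cells (0.607) and with marker-positive cells left out (0.185), that of *Cdk4* in the last of these (0.114), though not with thinned cells (log2 fold change 0.17, adjusted p = 0.042), and that of *Cdk6* with DESeq2 (0.0511) and without the block (0.198), though not with thinned cells, where it was -0.41 (0.000449). *Ccne1* was kept with DESeq2 and without the block and had too few UMIs for a test in the other 2.

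By mitosis list, *Cdkn2d* was higher and *Ccnd2* lower in the high sets. *Cdkn2d* was at 78.2 against 44.3 CPM in FL001 and at 84.1 against 48.1 CPM in FL002, a log2 fold change of 0.75 (SE 0.091, edgeR adjusted p = 9.46e-08). It was higher in the high set in 11 of 12 combinations, the exception being the other progenitor gate of FL001 with 55.9 against 60.7 CPM. *Ccnd2* was at 222 against 333 CPM in FL001 and at 209 against 283 CPM in FL002, a log2 fold change of -0.54 (SE 0.057, edgeR adjusted p = 7.31e-09), lower in 12 of 12 combinations. With thinned cells *Ccnd2* was at -0.55 (adjusted p = 3.71e-06) and *Cdk6* at -0.34 (0.0053), and *Cdkn2d* had too few UMIs to be tested. *Ccnd3* fell by 0.23 (edgeR adjusted p = 0.00111), *Cdk6* by 0.37 (edgeR adjusted p = 0.000845) and *Ccne1* by 0.57 (edgeR adjusted p = 0.0356), so 5 of 8 members tested passed, against 36.1% of all genes. *Cdkn1a* did not pass, at -0.14 (-0.30 to 0.01), with 193 against 189 and 160 against 176 CPM. *Cdkn2c* had 19 UMIs in the high against 1 in the low sets of FL001 and 15 against 0 in those of FL002. The exact Poisson interval of that count of 0 reaches 0.728 CPM. *Cdkn2c* entered a test only with no filter on low counts, with a log2 fold change of 3.24 that rests on the prior count (edgeR adjusted p = 0.0031). *Ccne1* was lost with DESeq2 (adjusted p = 0.0526), without the block (0.0959) and with the highest Scrublet doublet scores left out (0.0519), *Cdk6* without the block (0.0701), and *Ccnd3* without the block (0.391), with sets from thinned cells (0.352) and with marker-positive cells left out (0.232).

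**Figure D5:**
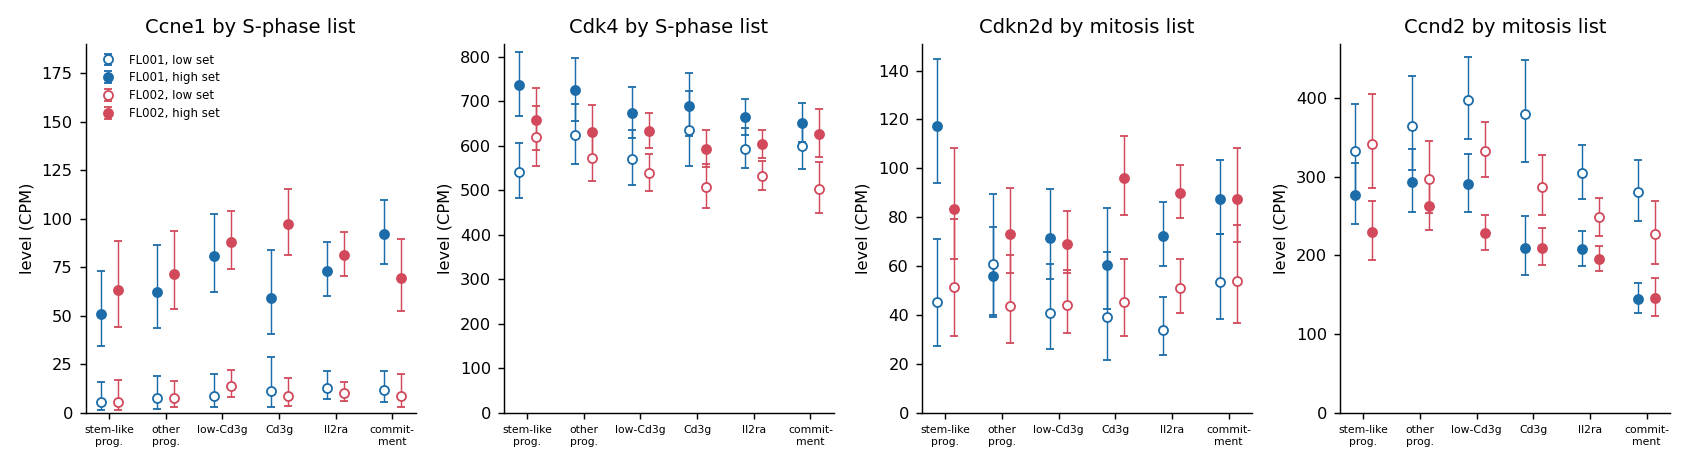
Level (CPM, linear axes from 0) of *Ccne1* and *Cdk4* in the low (open) and high (filled) sets of cells by S-phase list and of *Cdkn2d* and *Ccnd2* by mitosis list, in each gate of FL001 (blue) and FL002 (red), with 95% exact Poisson intervals. For *Ccne1* the high sets stand at 51.0 CPM or above and the low sets at 13.9 CPM or below in every gate, and *Ccnd2* is lower in the high sets in 12 of 12 combinations.

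In the same sets, 10 of 24 tested genes of the G1 to S list rose and 4 fell with S phase (36.9% of all genes), among them *Ccne2*, the other E cyclin gene (log2 fold change 2.72, SE 0.229, edgeR adjusted p = 4.21e-11), *E2f1* (2.30), *E2f8* (1.93) and *Skp2* (1.09), which encodes a ubiquitin ligase subunit that targets p27, while *Fzr1* fell by 1.01. With mitosis, 7 of 23 rose and 5 fell (36.1% of all genes), among them *Ccna2* (cyclin A2, 3.47), *E2f8* (1.81), *Cks1b* (1.32) and *Fzr1* (1.19), which activates the anaphase-promoting complex, while *Cdkn1c* fell by 1.02. The list median was 0.14 and 0.05 in these 2 tests, against -0.04 and -0.03 over all genes.

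The genes with the pattern most like each member were found among 3775 genes with at least 50 CPM in 1 of the 12 sums of gate and library, by Pearson's r of log2(CPM + 1). The sums share cells between gates and libraries between sums, so r is a description only. For *Ccnd1* they were *Cd34* (r = 0.991), a progenitor surface marker, *Egfl7* (0.988) and *Cd79b* (0.987). For *Cdkn1a* they were the T-cell receptor gamma genes *Tcrg-C2* (0.993) and *Tcrg-C1* (0.992) and the interferon-induced *Ifitm1* (0.991), and for *Ccnd3* they were *Bcl2l14* (0.991), *Pbxip1* (0.986) and *Tcrg-C1* (0.981). For *Ccnd2* they were *Mfsd10* (0.973), *Rheb* (0.972), which activates mTORC1, and *Rfc2* (0.966), a replication factor. *Cdk4* came with *Prdx2* (0.948), *Prpf31* (0.921) and *Immp1l* (0.914), *Cdk6* with *Tax1bp3* (0.888), *Cisd2* (0.886) and *Bmp2k* (0.864), and *Ccne1* with *Psmb5* (0.959), *Serpinb6b* (0.958) and *Tuba1a* (0.949). Of the other inhibitor genes, *Cdkn1b* came with *Rpp21* (0.848), *Gimap4* (0.837) and *Bex1* (0.813). *Cdkn2c* came with *Zfpl1* (0.950), *Eif5a* (0.906) and *Prim2* (0.900), and *Cdkn2d* with *Chd4* (0.807), *Nipbl* (0.799) and *Ing1* (0.797). The *Cdkn2c* values rest on 32 and 23 UMIs in all kept cells, too few to order the gates, so they show no shared pattern.

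Some members share bases with another annotated gene on the opposite strand, and the counting's use of strand is not stated. These are *Ccnd1* (with *LTO1*), *Ccnd2* (with *Gm43126* and *9330179D12Rik*), *Ccnd3* (with *Bysl*), *Cdk4* (with *Tspan31*), *Cdk6* (with *Gm17590* and *Gm42435*) and *Cdkn1a* (with *AC167363.2*), so reads of such pairs may not be fully told apart. The other 4 members overlapped no annotated gene.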

How the data were processed

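Both libraries were made on the 10X Chromium platform and sequenced from the 3′ end, and the authors used CellRanger to make gene by barcode matrices. The deposited values are raw UMI counts with no normalization; the submitters' notes name the mm9 build, and the counter's version and use of strand are not given in the sources used here. FL001 held 16320118 and FL002 22651783 UMIs. Barcodes were kept from 1500 UMIs and 500 detected genes upward, if no more than 10% of UMIs were mitochondrial. Both libraries form 1 group, so each gate was described in each library alone, and gates were compared on UMI sums per library with edgeR 4.0.16 (R 4.3.3; TMM, filterByExpr, quasi-likelihood test, library as block, Benjamini-Hochberg over all genes tested, call at an adjusted p under 0.05). The pairing comes from the design, since both sides of a comparison are cells of the same library. Levels carry exact Poisson and shares exact binomial (Clopper-Pearson) 95% intervals, which cover counting error only. The high, middle and low sets of cells by cycle list were taken within library and gate, with a cell of several gates counted in the latest.

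Scrublet (scanpy 1.11.5) marked 0.391% and 0.0244% of cells, under the 0.5% at which it can be taken to have worked, so doublets were not removed, and an alternative left out the 87 and 201 cells with the highest scores. Other alternatives were DESeq2 1.42.0, no block, median-of-ratios size factors, no filter on low counts, at least 2500 UMIs, thinning to 1500 UMIs before gating, shared barcodes left out, purer gates and, chosen after seeing the data, marker-positive cells left out (at least 3 UMIs of a list of another cell type). Members past the test were named in every comparison, and only some of the others were. Of the G1 to S list, genes past the test with an absolute log2 fold change of at least 1 were named, or else the 3 largest, and the 3 most alike genes were named for each member. The members and lists were chosen with earlier results of these data known. Promoter sequences came from RefSeq on GRCm38.p6 and overlaps of genes from GENCODE M21, in which 28339 of the 28692 gene IDs were found.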

Additional observations from a re-analysis of the deposited data

How the results depend on the processing

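Of the 28 member changes called, 28 were kept with median-of-ratios size factors, with no filter on low counts, at 2500 UMIs and without shared barcodes. With DESeq2 the members called were 0 (stem-like against other progenitor, 0 at an unadjusted p), 2 (low-Cd3g against other progenitor), 1 (Cd3g against low-Cd3g), 0 (Il2ra against Cd3g, 2 unadjusted) and 0 (commitment-gene against Il2ra, 3 unadjusted). Without the library block they were 0 (stem-like, 2 unadjusted), 2 (Cd3g against low-Cd3g), 0 (Il2ra, 2 unadjusted), 0 (commitment-gene against Il2ra, 3 unadjusted), 2 by mitosis list and 2 by S-phase list. With gates from thinned cells they were 0 (stem-like, 0 unadjusted), 2 (low-Cd3g), 0 (Il2ra, 2 unadjusted), 0 (commitment-gene against Il2ra, 2 unadjusted), 3 (commitment-gene against progenitors), 2 by mitosis list and 2 by S-phase list, and *Ccne1* reversed to -0.11 in the low-Cd3g gate against the other progenitor gate. With marker-positive cells left out they were 0 (stem-like, 3 unadjusted), 2 (low-Cd3g), 2 (Cd3g), 3 by mitosis list and 1 by S-phase list, and without commitment-gene cells 1 (Il2ra against Cd3g, where both calls were lost and *Ccnd1* was gained). With the highest Scrublet scores left out, 27 of the 28 calls were kept and *Ccnd1* was gained by mitosis list and in the Il2ra against the Cd3g gate. The thinned gates hold other cells and fewer UMIs, and the cause of the other changes was not tested.

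With cells thinned to 1500 UMIs and gates as before, the shares of D cyclin UMIs that moved by more than their interval in FL001 were *Ccnd2* 41.8% and *Ccnd3* 35.7% in the stem-like gate, *Ccnd1* 6.41% and *Ccnd3* 37.9% in the low-Cd3g gate, *Ccnd1* 0% and *Ccnd2* 48.4% in the Cd3g gate, *Ccnd1* 2.48% in the Il2ra gate, and *Ccnd2* 42.2% and *Ccnd3* 57.1% in the commitment-gene gate. In FL002 they were *Ccnd2* 45.4% and *Ccnd3* 34.4% in the other progenitor gate, *Ccnd1* 0.425% in the Cd3g gate, *Ccnd1* 1.73%, *Ccnd2* 39.9% and *Ccnd3* 58.4% in the Il2ra gate, and *Ccnd1* 0.239% in the commitment-gene gate. The gene with the largest share stayed as it was in each of these gates. The intervals of *Ccnd2* and *Ccnd3* then overlapped in the stem-like and Cd3g gates of FL001 and in the low-Cd3g gate of FL002.

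Of all genes, the 586, 1270, 1560, 72, 1620 and 3341 called in the 6 comparisons of gates, in the order of the report, became 29, 159, 255, 13, 282 and 994 with DESeq2, 78, 368, 346, 0, 185 and 2764 without the block, 17, 271, 994, 18, 277 and 831 with thinned gates and 54, 135, 598, 80, 840 and 1815 without marker-positive cells. The 2384 by mitosis list and 2475 by S-phase list became 1786 and 1684, 1240 and 1265, 545 and 519, and 1212 and 1319. The 72 were also 163 to 182 with no filter on low counts, at 2500 UMIs, without shared barcodes, with median-of-ratios size factors or without the highest Scrublet scores.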
